A study of Mus musculus with 71 samples.

Results

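The 10 genes described here are contractile and cytoskeletal genes of intestinal smooth muscle: Acta2, Actg2, Myh11, Des, Tagln, Cnn1, Mylk, Smtn, Lmod1 and Synpo2. They were listed by name from the 24475 genes of the tissue table, by no threshold on measured values but with earlier results of these data known, and all 10 passed the filter on low counts in every comparison. Their levels were compared between small intestine and colon and between Btnl2-KO and WT mice in 27 RNA-sequencing libraries of whole tissue: 7 of WT and 7 of Btnl2-KO small intestine, and 6 of WT and 7 of Btnl2-KO colon. The mice were C57BL/6, labelled YNG with no age in weeks, and no treatment is named for them. WT mice carried an intact Btnl2 gene. Btnl2-KO mice (Btnl2-/-) carried in every cell a LacZ cassette and a selection cassette placed at the start codon of Btnl2, which encodes a butyrophilin-like protein of gut epithelium. Which stretch of the small intestine was taken is not stated, and no label ties a colon library to a small intestine library of the same mouse. As background served 16 libraries of epithelial cells (IECs) of mice aged 7 weeks and 22 libraries of sorted γδ intraepithelial lymphocytes (IELs) pooled from mice aged 10 weeks, both from 3 segments of the small intestine (duodenum, jejunum, ileum) of the same strain and the same genotypes.

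The wall of the gut carries an inner circular and an outer longitudinal layer of smooth muscle, and a thin further layer lies under the mucosa. These cells contract when calcium activates myosin light chain kinase, which phosphorylates the light chains of myosin and lets its heads pull on actin filaments that are anchored to desmin and to dense bodies. Many of the genes involved are switched on by serum response factor with its partner myocardin, through a short A and T rich DNA element named the CArG box.

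The promoters are shown because these genes rose and fell together across libraries, as described further on. RefSeq start sites on GRCm38.p6 matched 7 of the 10 genes; Actg2, Myh11 and Tagln were not matched. The CArG box, which reads the same on both strands (CC, then 6 bases of A or T, then GG), was searched in the 250 bases before each start. None of the 7 promoters held the box without a mismatch, against 1.47% of all 32851 promoters in the table. With 1 mismatch allowed, 2 of the 7 held it, against 18.6% of all promoters. The 2 were Acta2 (chr19:34255374-34255623, minus strand), with matches 84 and 34 bases before the start, and Lmod1 (chr1:135324563-135324812, plus strand), with matches 189 and 164 bases before it. Mylk (chr16:34784700-34784949, plus strand) and Synpo2 (chr3:123236150-123236399, minus strand), the 2 genes called lower in colon than in small intestine in both genotypes, held none in this window. The window covers 1 start per gene, while 2 protein-coding transcripts of Mylk and 4 of Synpo2 are annotated. Which start is used in gut muscle was not tested. Each line below gives 250 bases in the direction of the gene, 5′ to 3′, ending at the base before the start, and capitals mark the matches with 1 mismatch. A match is a description of letters and not a measured binding site.
Acta2: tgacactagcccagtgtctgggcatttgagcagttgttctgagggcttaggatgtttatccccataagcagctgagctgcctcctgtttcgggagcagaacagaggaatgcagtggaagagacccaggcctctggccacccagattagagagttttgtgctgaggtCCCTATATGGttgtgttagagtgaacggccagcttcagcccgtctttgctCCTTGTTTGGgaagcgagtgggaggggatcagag
Lmod1: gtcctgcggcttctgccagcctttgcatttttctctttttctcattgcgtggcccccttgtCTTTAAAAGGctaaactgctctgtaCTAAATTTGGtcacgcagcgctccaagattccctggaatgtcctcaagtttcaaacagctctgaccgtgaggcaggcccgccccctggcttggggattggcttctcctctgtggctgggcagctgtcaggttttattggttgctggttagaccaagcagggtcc
Mylk: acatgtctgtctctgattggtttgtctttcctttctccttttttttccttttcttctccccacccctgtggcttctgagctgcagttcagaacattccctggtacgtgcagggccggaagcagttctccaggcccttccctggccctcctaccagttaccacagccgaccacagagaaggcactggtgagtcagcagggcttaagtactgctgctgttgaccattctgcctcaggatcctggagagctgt
Synpo2: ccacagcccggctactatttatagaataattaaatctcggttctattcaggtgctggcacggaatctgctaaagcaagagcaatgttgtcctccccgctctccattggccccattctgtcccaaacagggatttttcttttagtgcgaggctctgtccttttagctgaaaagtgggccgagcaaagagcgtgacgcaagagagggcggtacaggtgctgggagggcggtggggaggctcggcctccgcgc

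Total counts ranged from 13619309 to 21708721 per tissue library. Btnl2 was at 23.9 to 103 CPM (counts scaled to a common library size, after TMM scaling of the library totals) in WT and at 0.675 to 2.44 CPM in Btnl2-KO small intestine, and in the colon at 0.652 to 2.40 CPM in WT and at most 0.0453 CPM in Btnl2-KO libraries, and no Btnl2-KO library reached the lowest WT library of its tissue. Some libraries stood apart. Small intestine libraries 964950 (WT) and 964939 (Btnl2-KO) had 82.7 and 95.6 CPM of Gata4, a transcription factor of the proximal small intestine, where the other 12 had at most 15.1 CPM, and 105 and 431 CPM of Fabp6, an ileal bile acid carrier, where the others had at least 1174 CPM. The 15.1 and 1174 CPM were both of WT library 964952, and the next highest Gata4 was 2.30 CPM in WT library 964946. Library 964952 also had the highest Myh11, Mylk and Synpo2 levels of WT small intestine. Colon libraries 964932 (WT) and 964929 (Btnl2-KO) carried at least 66.9 CPM of each of the pancreatic acinar genes Cpa1, Prss2, Pnlip and Cel, where the other 11 colon libraries had at most 0.268 CPM. In Btnl2-KO colon library 964926 genes with long transcripts were low: over 14562 genes the deviation from the other libraries of its group correlated with transcript length at a Spearman rho of -0.54, and the next lowest value, -0.39, was that of WT small intestine library 964946. The other 25 libraries lay between -0.13 and 0.26; this rho is across genes of 1 library and carries no test.

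The 10 genes together made up a median of 6968 CPM in WT and 5762 CPM in Btnl2-KO small intestine, and 6421 CPM in WT and 4577 CPM in Btnl2-KO colon, and the ranges of the 4 groups overlapped. In bulk tissue, fewer cells of a type and less RNA per cell cannot be told apart. To compare genes with each other, CPM was divided by the median length of the protein-coding transcripts of each gene. Acta2, the α-actin of smooth muscle, and Actg2, its enteric γ-actin, led in WT small intestine with 559 ± 158 and 532 ± 418 CPM per kilobase (SD, n = 7), followed by Tagln at 396 ± 187, Mylk at 318 ± 52.3, Myh11 at 313 ± 59.0, Des at 286 ± 186 and Cnn1 at 157 ± 87.1. Each neighbouring pair in this order differed by less than the larger of its SDs. Smtn with 51.2 ± 9.12, Synpo2 with 35.8 ± 4.60 and Lmod1 with 27.01 ± 5.51 CPM per kilobase formed the low end of the order. In WT colon the order was led by Tagln, 510 ± 52.9, and Acta2, 507 ± 45.6 CPM per kilobase (n = 6), with Mylk down to 152 ± 13.3, below Cnn1 at 223 ± 41.1. The actins share long stretches of near-identical coding sequence, which the authors' read assignment had to divide between them, and for Mylk the annotated transcripts run from 1620 to 7824 bases, so the per-length values of these genes are uncertain.

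**Figure D1:**
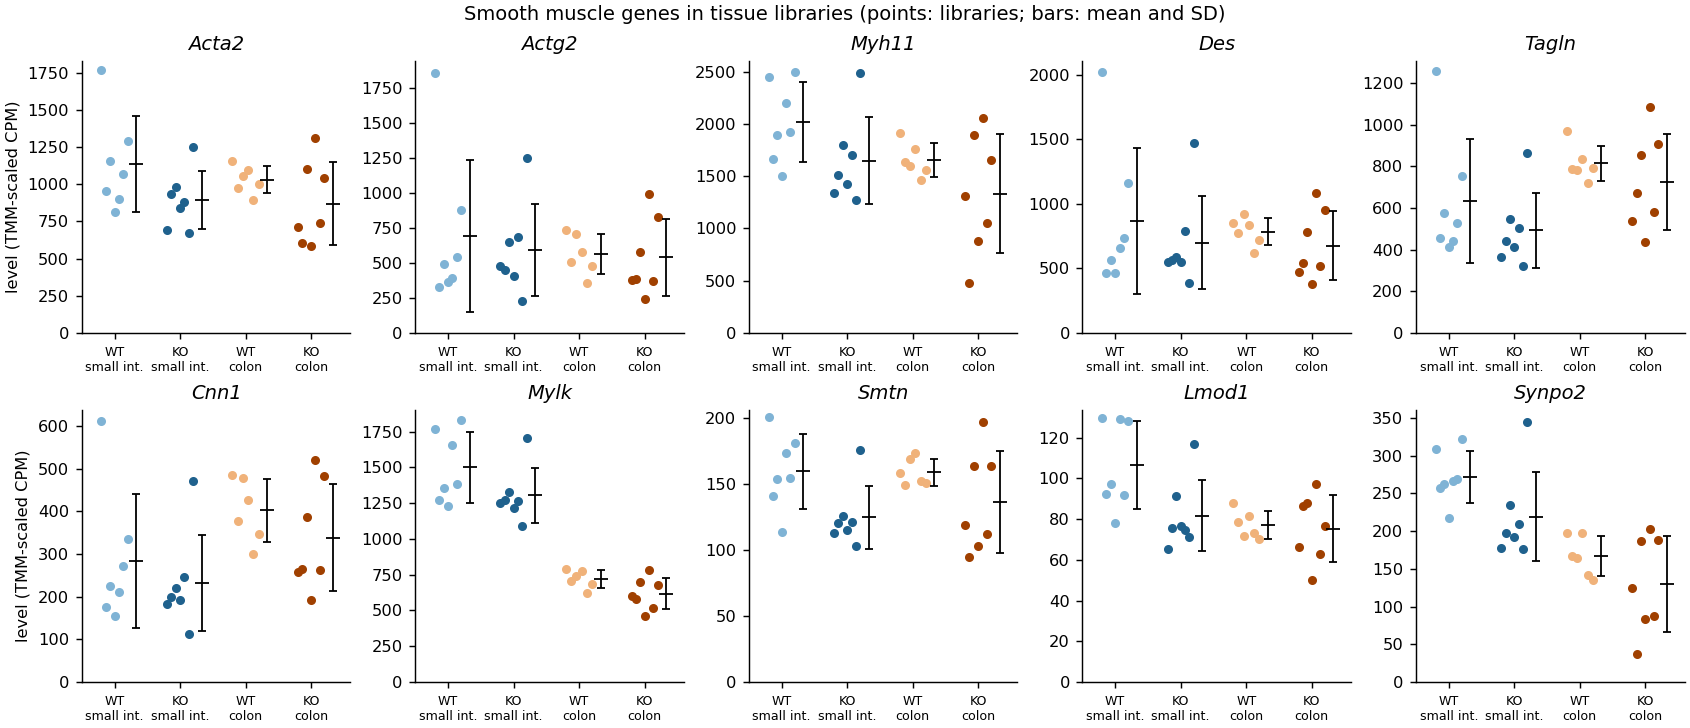
Levels of the 10 genes in each tissue library, in CPM after TMM scaling (vertical axes start at 0), for WT and Btnl2-KO small intestine (n = 7 each) and WT (n = 6) and Btnl2-KO colon (n = 7). Points are libraries and bars the mean and SD; Mylk is the gene whose colon libraries all lie under all small intestine libraries in both genotypes.

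Between colon and small intestine the muscle genes did not move as a block: Mylk and Synpo2 were lower in the colon in both genotypes, the other 8 were not called, and whether Tagln and Cnn1 were called higher turned on single libraries. A gene was called at an edgeR quasi-likelihood FDR below 0.05 (Benjamini-Hochberg, over all genes tested) with a fold change above 1.5. In WT mice 2 of 10 genes were called lower and 0 higher in the colon, where 15.6% of all 15162 genes tested were called lower and 12.0% higher. In Btnl2-KO mice the counts were again 2 lower and 0 higher, against 15.7% and 14.4% of 14798 genes. The shares of the 10 genes are thus near those of all genes. The median log2 fold change of the 10 genes was -0.23 in WT and -0.09 in Btnl2-KO mice, beside -0.02 and 0.02 over all genes tested. The WT and the Btnl2-KO comparison share no library.

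Mylk, the kinase that starts contraction, had 1231, 1383 and 1831 CPM as its lowest, median and highest level in WT small intestine and 619, 725 and 787 CPM in WT colon. In Btnl2-KO mice it had 1087, 1262 and 1706 CPM in small intestine and 464, 598 and 781 CPM in colon. The groups did not overlap in either genotype. The colon was 2.11-fold lower in WT (log2 fold change -1.08, SE 0.12, edgeR FDR 5.33e-06) and 2.12-fold lower in Btnl2-KO mice (log2 -1.09, SE 0.13, edgeR FDR 4.49e-06), and the call stood in each alternative and without each single library.

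Synpo2, an actin-bundling protein of the Z-disc and dense body, had 217, 266 and 323 CPM as lowest, median and highest level in WT small intestine and 135, 166 and 198 CPM in WT colon, again without overlap (log2 fold change -0.72, SE 0.12, edgeR FDR 0.000158). In Btnl2-KO mice it had 176, 197 and 345 CPM in small intestine and 37.0, 125 and 203 CPM in colon, and 3 colon libraries, 964927, 964929 and 964931, lay among the small intestine libraries. Its log2 fold change there was -0.76 with an SE of 0.30 (edgeR FDR 0.0462), a call that was lost without 8 of the 14 libraries, each left out singly: 3 of colon (964925, 964928 and 964930) and 5 of small intestine (964940, 964941, 964942, 964943 and 964945), where the edgeR FDR was 0.0548 to 0.105. The lowest colon value, 37.0 CPM, was that of library 964926. Over all genes tested, 10.8% in WT and 13.6% in Btnl2-KO mice had every colon library under every small intestine library, and 14.0% and 13.4% had every colon library above; of the 10 genes, 2 in WT and 1 in Btnl2-KO mice did so downward and 0 upward.

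Lmod1, a nucleator of actin filaments, had 78.1, 97.1 and 130 CPM in WT small intestine and 70.4, 75.9 and 88.2 CPM in WT colon (lowest, median and highest). It passed the FDR but not the fold minimum in WT mice (log2 fold change -0.48, SE 0.12, edgeR FDR 0.00538) and had an edgeR FDR of 0.543 in Btnl2-KO mice. Myh11, the heavy chain of smooth muscle myosin, was at -0.31 (SE 0.13, edgeR FDR 0.0767) and -0.32 (SE 0.27, edgeR FDR 0.343) on the log2 scale. Acta2, Actg2, Des and Smtn lay between -0.33 and 0.12 in the 2 genotypes with an edgeR FDR of at least 0.434. For Actg2 the 95% interval of the WT difference ran from -1.13 to 0.47, so a change of over 2-fold downward is within it. For Smtn it ran from -0.27 to 0.21.

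**Figure D2:**
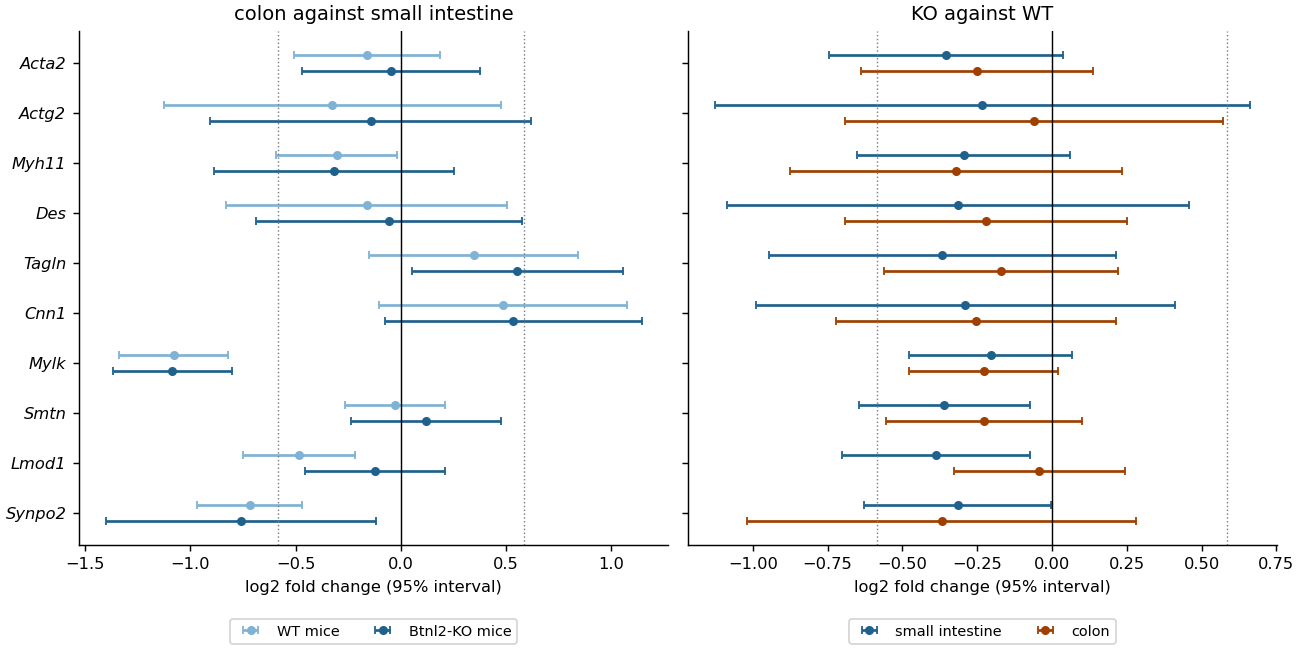
Log2 fold changes from edgeR (points) with 95% intervals (bars) for colon against small intestine (left) and Btnl2-KO against WT (right); dotted lines mark a fold change of 1.5 in either direction. Mylk and Synpo2 lie below zero in both genotypes on the left, and on the right all 20 points lie below zero with intervals that mostly cross it.

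Tagln and Cnn1, which encode the actin-binding proteins transgelin and calponin, were the 2 genes with higher values in the colon in both genotypes, although neither was called. Tagln had 412, 530 and 1258 CPM in WT small intestine against 722, 788 and 969 CPM in WT colon (lowest, median and highest). Library 964946, at 1258 CPM, lay above every colon library, 964952, at 753 CPM, lay within the colon range, and the other 5 lay below it. Its log2 fold change was 0.35 (SE 0.23, edgeR FDR 0.238) in WT and 0.55 (SE 0.24, edgeR FDR 0.0620) in Btnl2-KO mice. Cnn1 had 155, 224 and 612 CPM in WT small intestine and 300, 401 and 485 CPM in WT colon, where 612 CPM was again library 964946, and its log2 fold changes were 0.49 (SE 0.28, edgeR FDR 0.164) and 0.53 (SE 0.29, edgeR FDR 0.134). Without WT library 964946 both were called higher in WT colon, Tagln at a log2 fold change of 0.60 (edgeR FDR 0.00355) and Cnn1 at 0.79 (edgeR FDR 0.00308). Without Btnl2-KO small intestine library 964945 both were called higher in Btnl2-KO colon, at 0.75 (edgeR FDR 0.00671) and 0.81 (edgeR FDR 0.0105). Limma-voom with quality weights called both genes in both genotypes. Tagln alone was also called in Btnl2-KO mice without colon library 964925 (log2 fold change 0.62, edgeR FDR 0.0488) or 964928 (0.65, edgeR FDR 0.0304).

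The balance among the muscle genes within a library was described by the log2 ratio of each count to the Myh11 count of the same library, a quantity that does not depend on the library total. The Tagln ratio was -1.76 ± 0.41 in WT small intestine (SD, n = 7) and -1.03 ± 0.04 in WT colon (n = 6), and -1.78 ± 0.14 and -0.80 ± 0.59 in Btnl2-KO mice (n = 7 each). In Btnl2-KO mice every colon library lay above every small intestine library; in WT mice 36 of the 42 pairs of libraries did, and without 964946 all 36 pairs did. The Cnn1 ratio was likewise higher in the colon: -2.96 ± 0.47 against -2.06 ± 0.19 in WT, and -2.92 ± 0.32 against -1.92 ± 0.51 in Btnl2-KO mice, with 38 of 42 and 49 of 49 pairs higher in the colon. Smtn, Acta2, Actg2 and Des also had higher mean ratios in the colon in both genotypes. For Smtn this held in 41 of 42 pairs in WT (mean difference 0.28) and in 49 of 49 in Btnl2-KO mice (0.51), for Acta2 in 34 of 42 and 44 of 49, for Des in 33 of 42 and 37 of 49, and for Actg2 in 29 of 42 and 28 of 49. A higher mean ratio to Myh11 in the colon was thus shared by 6 of the 9 genes, with the largest mean differences for Tagln and Cnn1. Without Btnl2-KO colon library 964926 the Btnl2-KO difference was 0.20 for Acta2, 0.21 for Des and 0.13 for Actg2. Colon lay above in 37, 30 and 21 of 42 pairs. For Smtn, Tagln and Cnn1 it was 0.37, 0.77 and 0.82, with 42 of 42 pairs each. Myh11 itself had log2 fold changes of -0.31 in WT and -0.32 in Btnl2-KO mice. Those of Acta2, Actg2 and Des were also below zero in both. The median over all genes tested was -0.02 in WT and 0.02 in Btnl2-KO mice. A gene with equal CPM in both tissues would thus also have a higher ratio to Myh11 in the colon. The share of all genes with a higher ratio, or with no overlap of the groups, was not computed. The Lmod1 ratio was lower by -0.17 in WT and higher by 0.29 in Btnl2-KO mice. Without library 964926 the Btnl2-KO difference of Lmod1 was 0.03, with colon above in 22 of 42 pairs. Mylk and Synpo2 had lower ratios in the colon in both. The Mylk ratio was -0.42 ± 0.07 in small intestine and -1.20 ± 0.06 in colon of WT mice, with no overlap, and -0.32 ± 0.16 and -0.99 ± 0.59 in Btnl2-KO mice, where 1 colon library, 964926, lay above all small intestine libraries. The Synpo2 ratio was -2.88 ± 0.12 against -3.32 ± 0.13 in WT and -2.92 ± 0.06 against -3.41 ± 0.18 in Btnl2-KO mice, without overlap in either. These ratios are descriptions without a test. In library 964926 Myh11 was at 0.32 times the median of the other 6 Btnl2-KO colon libraries, and without it the Mylk ratio of Btnl2-KO colon was -1.20, with no overlap.

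**Figure D3:**
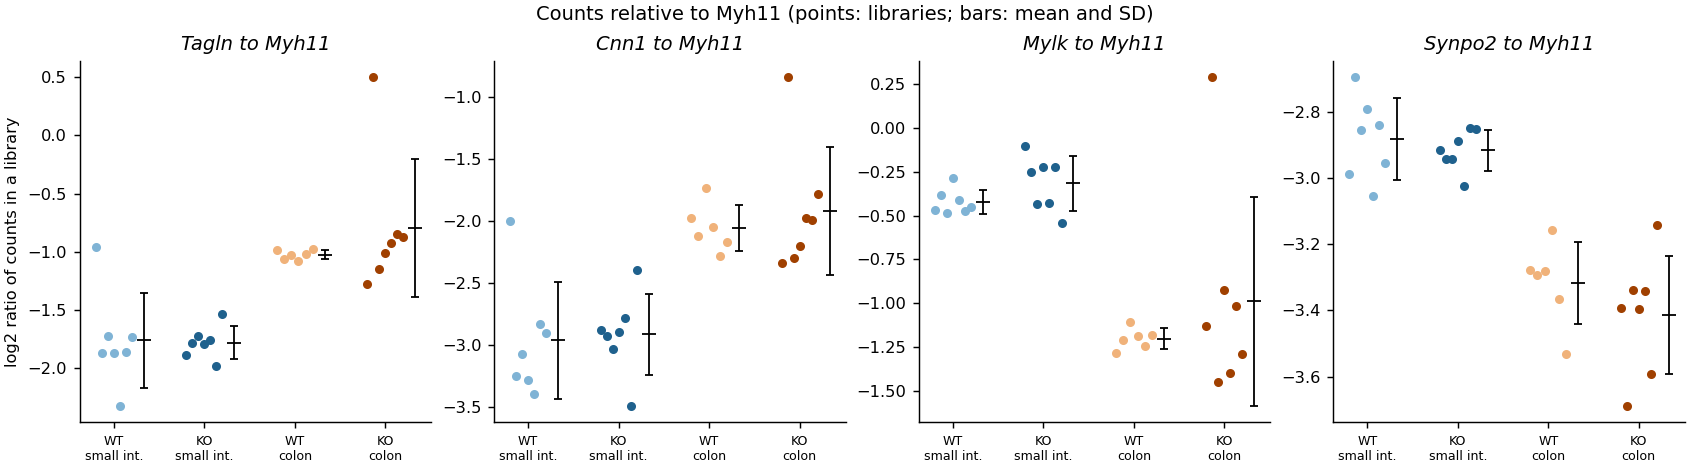
Log2 ratio of the Tagln, Cnn1, Mylk and Synpo2 counts to the Myh11 count of the same tissue library, by group; points are libraries and bars the mean and SD. Tagln and Cnn1 ratios are higher in the colon apart from WT small intestine library 964946, Mylk and Synpo2 ratios lower apart from Btnl2-KO colon library 964926 for Mylk.

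Of a further 34 smooth muscle genes in 4 lists, 1 was called higher and 1 lower in WT colon, where 12.0% and 15.6% of all genes tested were, and 1 higher and 2 lower in Btnl2-KO colon, where 14.4% and 15.7% were. Of 10 other filament genes 0 were called in either genotype, and of 10 genes of adhesion sites 0 were called in either. Among 8 genes of excitation and signalling, Kcnma1, the pore subunit of the large-conductance calcium-activated potassium channel, was higher in WT colon (49.9 ± 4.06 CPM, n = 6, against 28.4 ± 5.35 CPM, n = 7; log2 fold change 0.79, SE 0.11, edgeR FDR 5.02e-05) and in Btnl2-KO colon (log2 fold change 0.78, edgeR FDR 0.00377). Chrm3, a muscarinic acetylcholine receptor named after its values were seen, was called lower in Btnl2-KO colon (log2 fold change -1.18, edgeR FDR 0.0318) at a low level, with 3.29 to 17.8 CPM in Btnl2-KO small intestine. In WT mice Chrm3 was uncalled at a log2 fold change of -0.95 (edgeR FDR 0.0590). Among 6 regulators Myocd, which encodes myocardin, was lower in the colon in WT (9.34 ± 1.86 against 14.1 ± 2.25 CPM; log2 fold change -0.61, SE 0.15, edgeR FDR 0.00337) and in Btnl2-KO mice (log2 fold change -0.71, edgeR FDR 0.0342). Without each of 3 of the 13 WT libraries in turn the WT call of Myocd was lost. It was also lost with library totals alone (log2 fold change -0.54) and by limma-voom (-0.53), where it fell short of the fold minimum. The other 5 regulators, named here after their values were seen, moved in both directions without reaching the fold minimum. Srf, which encodes serum response factor, was lower in the colon at log2 fold changes of -0.47 in WT (edgeR FDR 0.000236) and -0.37 in Btnl2-KO mice (edgeR FDR 0.000449), and Rbpms, an RNA-binding protein, at -0.57 (edgeR FDR 0.000320) and -0.49 (edgeR FDR 0.00180). Mrtfb, a relative of myocardin, was higher at 0.42 in WT (edgeR FDR 0.00177) and 0.28 in Btnl2-KO mice (edgeR FDR 0.0216). Its paralogue Mrtfa passed the FDR in Btnl2-KO mice (0.28, edgeR FDR 0.00348) and not in WT mice (0.02, edgeR FDR 0.866), and Foxf1 in WT mice (-0.25, edgeR FDR 0.0412) and not in Btnl2-KO mice (-0.02, edgeR FDR 0.891).

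Genes of cells that lie beside smooth muscle in the wall were also compared. Ano1, the chloride channel of the interstitial cells of Cajal that pace the muscle, was 7.44-fold higher in WT colon (294 ± 49.95 CPM, n = 6, against 39.1 ± 9.20 CPM, n = 7; log2 fold change 2.90, SE 0.16, edgeR FDR 5.65e-09). Kit, a receptor of the same cells, was called higher in WT mice (log2 fold change 0.59, SE 0.20, edgeR FDR 0.0281), a call lost in 6 of the 13 fits without 1 library. The Kit call was also lost by limma-voom and with all 27 libraries in one fit. In Btnl2-KO colon Ano1 was called higher (log2 fold change 3.12, edgeR FDR 2.35e-10) and Kit was not called (0.30, edgeR FDR 0.425). Etv1, the third gene of this list of 3, was uncalled at -0.16 in WT (edgeR FDR 0.482) and -0.19 in Btnl2-KO mice (edgeR FDR 0.403). Ano1 is also expressed by other cells. Rgs5 and Kcnj8, of the mural cells of vessels, were lower in WT colon by log2 fold changes of -1.37 (SE 0.13, edgeR FDR 1.08e-06) and -1.09 (SE 0.16, edgeR FDR 5.26e-05), with 82.4 ± 12.6 against 211 ± 39.8 CPM for Rgs5. They were the 2 genes called in WT mice of a mural list of 6, and all 6 had log2 fold changes below zero. Of 8 enteric neuron genes Nos1 was higher and Vip lower, with log2 fold changes of 0.59 (edgeR FDR 0.00403) and -0.60 (edgeR FDR 0.00342), calls lost in 6 and 5 of the 13 fits without 1 library. Nos1 also lost its call with all 27 libraries in one fit, and Vip with library totals alone and by limma-voom. Of 6 fibroblast, 5 endothelial, 4 glial and 3 mesothelial genes 0 were called in WT mice. Of the epithelial list, Cdh1 was called higher and Vil1 and Cdh17 lower in WT colon, and the list's summed level was 8108 to 9426 CPM in WT colon and 7662 to 14340 CPM in WT small intestine. The part of these cell types in the differences of Mylk and Synpo2 was not tested.

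Btnl2 deletion did not bring any of the 10 genes past the threshold in either tissue. In small intestine 0 of 10 were called, beside 2 genes higher (0.0135%) and 1 lower (0.00673%) of 14866 tested, the lower one being Btnl2. All 10 log2 fold changes were below zero, from -0.39 (Lmod1) to -0.21 (Mylk), where 55.2% of all genes tested were below zero; their median was -0.31 beside -0.03 over all genes. Smtn, Lmod1 and Synpo2 had an unadjusted p below 0.05 (0.0168, 0.0188 and 0.0480 in the edgeR fit), as did 11.1% of all genes tested in the lower direction, and after adjustment over all genes their FDR was 0.151, 0.157 and 0.215. Smtn, a smooth muscle cytoskeletal protein, had 114, 154 and 201 CPM in WT and 103, 120 and 176 CPM in Btnl2-KO small intestine (lowest, median and highest), with wide overlap. Lmod1 had 78.1, 97.1 and 130 CPM in WT and 65.3, 75.5 and 117 CPM in Btnl2-KO libraries. The 95% intervals reached down to -0.65 for Smtn and -0.70 for Lmod1 on the log2 scale, so that decreases past the fold minimum lay within them.

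The direction of several genes rested on 1 WT library. Without 964946, the WT library with the highest Actg2, Des, Tagln and Cnn1 levels, 7 of 10 log2 fold changes were below zero, and Actg2 (0.25), Des (0.06) and Cnn1 (0.03) lay above. Without Btnl2-KO library 964945 all 10 were below zero with a median of -0.48. Other cell types moved with the muscle genes: 28 of the 34 other muscle genes, all 6 fibroblast, 5 endothelial, 6 mural and 4 glial genes and 7 of 8 enteric neuron genes had log2 fold changes below zero, and 6 of 8 epithelial genes lay above zero, with none called. The summed epithelial level was 11520 to 14970 CPM (median 13460) in Btnl2-KO and 7662 to 14340 CPM (median 11140) in WT small intestine, with no epithelial gene at 0 counts in either. The part of the epithelial share in the genotype difference was not tested. With the marker-bearing libraries 964939 and 964950 left out, all 10 stayed below zero with a lowest edgeR FDR of 0.325. WT library 964952, which had the next highest Gata4 level, was kept in that fit.

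In the colon 0 of 10 genes were called between Btnl2-KO and WT mice, beside 2 genes higher and 2 lower of 14871 (0.0134% each). All 10 log2 fold changes were again below zero, from -0.37 (Synpo2) to -0.04 (Lmod1), where 46.7% of all genes were; the lowest edgeR FDR was 0.972, and 0 had an unadjusted p below 0.05. The sign rested on single libraries for 2 genes: Actg2 lay above zero in 5 of the 13 fits that left out 1 library (up to 0.069) and Lmod1 in 2 of 13 (up to 0.037). Myh11, at 1463, 1617 and 1915 CPM in WT and 477, 1308 and 2055 CPM in Btnl2-KO colon (lowest, median and highest), had a log2 fold change of -0.32 (SE 0.26), and its 95% interval ran from -0.87 to 0.23. Of the 7 Btnl2-KO libraries 3 lay above the WT median and 4 below the lowest WT library. In the interaction fit over all 27 libraries, which tests whether the genotype effect differs between the tissues, 0 of the 10 genes were called, beside 2 higher (0.0129%) and 1 lower (0.00644%) of 15540 genes, the interaction terms ran from -0.04 (Synpo2) to 0.36 (Lmod1), the lowest edgeR FDR was 0.451, and 0 had an unadjusted p below 0.05. The 95% interval was wide for Actg2, from -0.93 to 1.29. Each of these comparisons reuses libraries of the tissue comparisons.

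On the log2(CPM + 1) scale, the SD between libraries of a group exceeded the median SD of all 15540 genes for 9 of 10 muscle genes in WT small intestine (median SD of the members 0.33, of all genes 0.23), 10 of 10 in Btnl2-KO small intestine (0.33 and 0.18), 10 of 10 in Btnl2-KO colon (0.50 and 0.23) and 4 of 10 in WT colon (0.14 and 0.15). With a pseudocount of 0.1 in place of 1, which shrinks the SD of genes with low levels less, the counts were 6, 9, 9 and 4 of 10, and in WT small intestine Myh11, Mylk, Smtn and Synpo2 then lay below the median SD of all genes, 0.28. Actg2 led in WT colon and both small intestine groups, with SDs of 0.39, 0.88 and 0.75, and in WT small intestine 97.6% of all genes had a smaller SD. Its levels ran from 329 to 1855 CPM in WT and from 229 to 1248 CPM in Btnl2-KO small intestine, 5.63 and 5.45 times from lowest to highest. Des, the intermediate filament desmin, ran from 463 to 2020 CPM and from 386 to 1470 CPM. Mylk was the steadiest in Btnl2-KO small intestine and Btnl2-KO colon, with SDs of 0.20 and 0.26, and Synpo2 in WT small intestine with 0.19. Synpo2 had the widest spread in Btnl2-KO colon, an SD of 0.88, which includes the low value of library 964926.

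**Figure D4:**
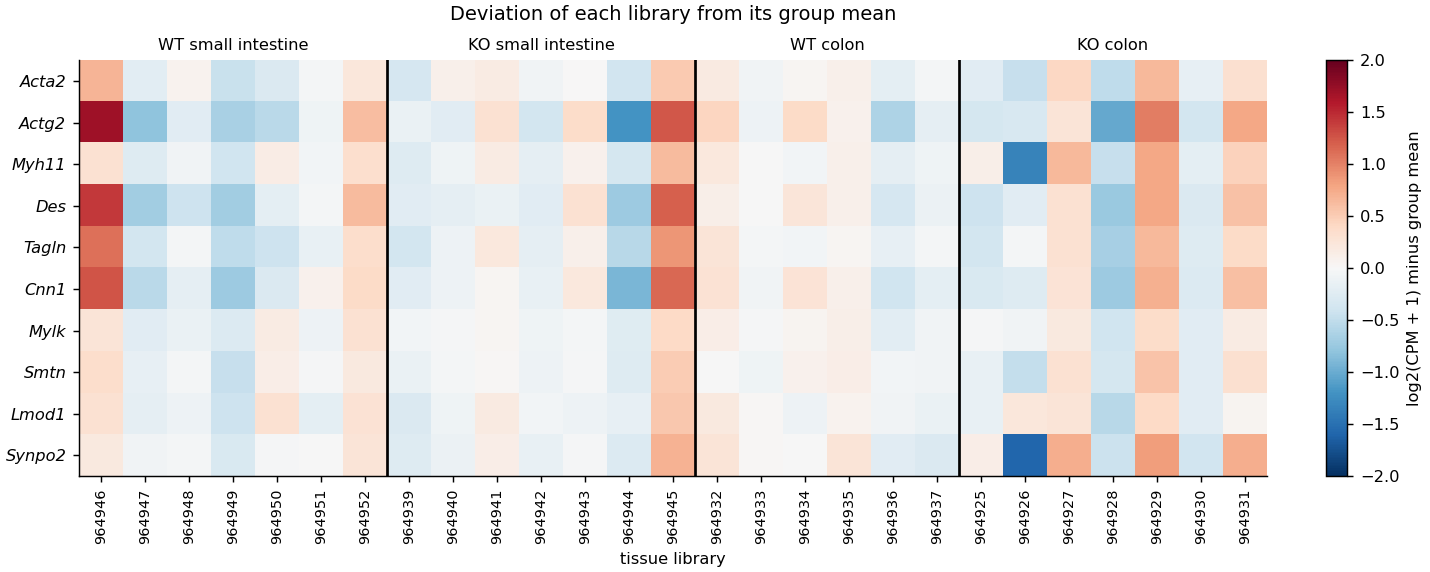
Deviation of log2(CPM + 1) of each gene from its group mean in the 27 tissue libraries (colour scale from -2 to 2; columns are libraries grouped by tissue and genotype). Libraries 964946 and 964945 are high for Actg2, Des, Tagln and Cnn1 above all, and library 964926 is low for Myh11 and Synpo2.

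Within groups the 10 genes rose and fell together. The mean Pearson r over the 45 pairs, computed on deviations from group means over 27 libraries, was 0.80, where the mean over all pairs of 15540 genes was 0.0013. Positive and negative pairs offset each other in the mean over all genes. No other list of genes of 1 cell type was set beside the 10 genes. These r values describe likeness and carry no test. The proportion of muscle in each piece taken is not known, and its part in them was not tested. The closest pairs fell on 2 sides: Actg2 with Cnn1 (r = 0.98), Des with Cnn1 (0.98), Actg2 with Des (0.97) and Tagln with Cnn1 (0.96) on one side, and Myh11 with Synpo2 (0.97) on the other. The loosest pairs were Lmod1 with Synpo2 (0.46) and Myh11 with Lmod1 (0.55). All these r values include libraries 964946 and 964926, and none is given without them. Whether the 2 sides hold without these libraries is therefore not known. In library 964946 Actg2 was at 4.20 times, Des at 3.31 times, Cnn1 at 2.82 times and Tagln at 2.55 times the median of the other 6 WT small intestine libraries, but Myh11 at 1.28 times, Mylk at 1.29 times and Synpo2 at 1.17 times. In library 964945 all 10 genes were the highest of their group, at 1.36 (Mylk) to 2.68 times (Actg2) the median of the others. In library 964926 Synpo2 was at 0.24 and Myh11 at 0.32 times the median of the others, while Mylk was at 0.91, Tagln at 0.94 and Lmod1 at 1.21 times. The median transcripts of Synpo2 and Myh11, 7592 and 6450 bases, are the longest of the 10. The part of transcript length in the values of 964926 and 964946 was not tested. The rho of deviation with transcript length was -0.54 in 964926, -0.39 in 964946 and -0.02 in 964945.

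Across all 15530 other genes tested, the 10 whose deviations were most like the mean of the muscle genes were Tpm1 (r = 0.97), Pdlim3 (0.97), Tpm2 (0.96), Myl9 (0.96), Dmpk (0.96), Csrp1 (0.95), Pdlim7 (0.94), Synm (0.94), Actn1 (0.94) and Cald1 (0.93), over 27 libraries. The median r over all these genes was -0.03, with 5% above 0.50. Tropomyosins (Tpm1, Tpm2), the regulatory light chain of myosin (Myl9), caldesmon (Cald1) and α-actinin (Actn1) are parts of the contractile apparatus, and 8 of the 10 stand in the further muscle lists used here; Dmpk and Synm, the latter an intermediate filament partner of desmin, do not.

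The relation of Myh11 to Actg2, as a second muscle gene, and to Epcam, a surface protein of epithelial cells, was tested in each of the 4 tissue groups, 8 relations in all (exact permutation tests, two-sided, Benjamini-Hochberg adjusted). Myh11 and Actg2 correlated in Btnl2-KO small intestine with Pearson r = 0.93 (n = 7, exact permutation p = 0.00198, adjusted 0.00794) and Spearman rho = 0.86 (exact permutation p = 0.0238, adjusted 0.0910), and without the 2 libraries farthest from the Myh11 median r was 0.84. Values of r in the other groups were 0.76 in WT small intestine, 0.77 in WT colon and 0.70 in Btnl2-KO colon, with exact permutation p adjusted to 0.0995, 0.102 and 0.102 for r and to 0.0910, 0.106 and 0.106 for rho (0.82, 0.83 and 0.75), and 0.77, 0.14 and 0.89 without the 2 farthest libraries. Myh11 fell as Epcam rose in Btnl2-KO small intestine (r = -0.98, n = 7, exact permutation p = 0.00119, adjusted 0.00794; rho = -0.89, exact permutation p = 0.0123, adjusted 0.0910; r = -0.92 without the 2 farthest libraries and -0.98 without library 964939). In WT small intestine r was -0.26, in WT colon -0.53 and in Btnl2-KO colon -0.72, with exact permutation p adjusted to 0.556, 0.310 and 0.102; rho was -0.32, -0.60 and -0.71, with exact permutation p adjusted to 0.498, 0.276 and 0.118, and r without the 2 farthest libraries was -0.07, -0.10 and -0.64. Both genes are shares of 1 total, and whether the relations differ between genotypes was not tested.

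The epithelial and IEL libraries were read for the level of the 10 genes in cell preparations other than whole tissue. These tables were normalized separately from the tissue table. In the 16 IEC libraries (15397757 to 38258472 total counts) Acta2, Actg2, Tagln, Cnn1, Lmod1 and Synpo2 were under 1 CPM in every library, and Myh11 and Des in 15 of 16. The exception was WT ileum library 1003488, with 6.75 CPM of Des and 1.02 CPM of Myh11. Mylk in contrast had 147 to 218 CPM (median 159) and Smtn 10.4 to 20.1 CPM (median 17.1) in every IEC library. By segment, Mylk had 156 ± 7.90 CPM (n = 3) in WT and 164 ± 11.1 CPM (n = 2) in Btnl2-KO duodenum, 190 ± 38.1 CPM and 162 ± 10.0 CPM (n = 3 each) in jejunum, and 154 ± 7.53 CPM (n = 2) and 157 ± 7.63 CPM (n = 3) in ileum, each pair WT then Btnl2-KO; these differences were not tested. Colon epithelium was not analysed here, so the epithelial level of Mylk could not be set beside its lower level in colon tissue.

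In the 22 IEL libraries (13444958 to 30029485 total counts) Acta2, Actg2, Myh11, Des, Tagln, Cnn1 and Lmod1 were under 1 CPM in every library, and Des and Lmod1 had 0 counts in 21 of 22. Mylk had 0.498 to 29.0 CPM (median 13.8), Smtn 1.18 to 10.5 CPM (median 5.57) and Synpo2 0.226 to 1.54 CPM (median 0.890). Mylk had 18.8 ± 8.04 CPM in WT (n = 4) and 6.78 ± 2.03 CPM in Btnl2-KO ileal IELs (n = 3), 19.3 ± 6.44 CPM (n = 4) and 19.6 ± 5.82 CPM (n = 3) in the duodenum, and 13.1 ± 5.56 CPM and 8.24 ± 8.16 CPM (n = 4 each) in the jejunum; these differences were not tested. Of the 10 genes, Mylk and Smtn were the 2 above 10 CPM in any epithelial or IEL library. Both had a higher median in the epithelial than in the IEL libraries. The paper names Fabp6 among the genes lower in Btnl2-KO ileal IELs. The part of epithelial RNA in the IEL levels of Mylk and Smtn was not tested.

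**Figure D5:**
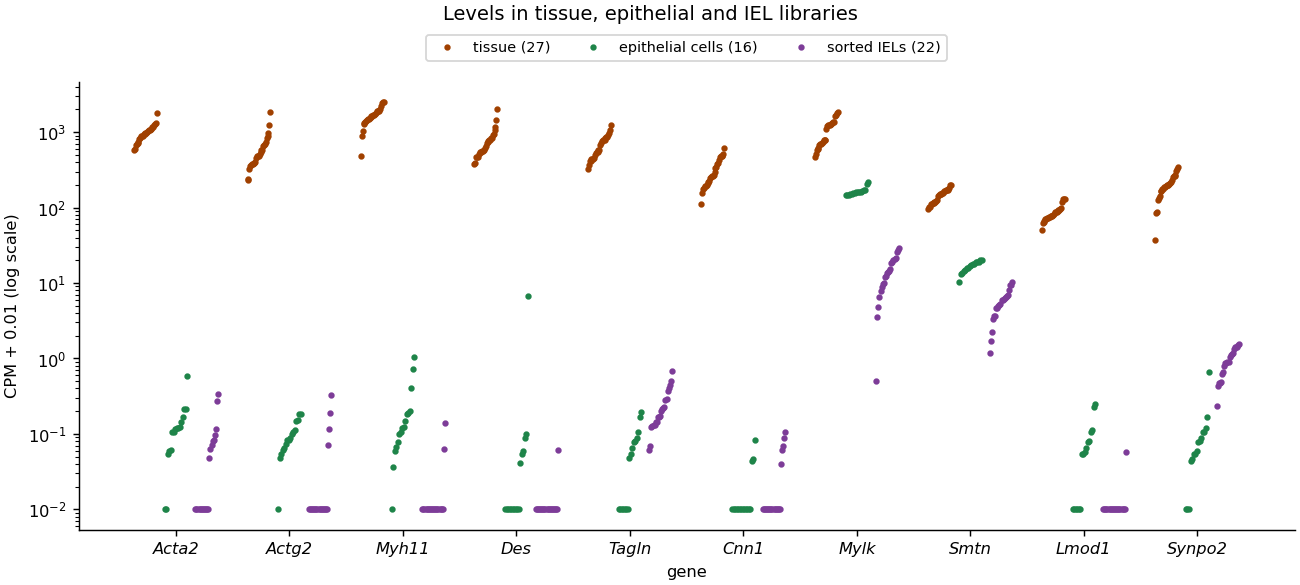
Level of each gene in the 27 tissue (brown), 16 epithelial (green) and 22 IEL libraries (purple), as CPM + 0.01 on a log axis, with libraries ordered by level within each cloud. Mylk and Smtn have clear levels in epithelial libraries, where the other 8 genes lie near or below 1 CPM apart from 1 library for Des.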

How the data were processed

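RNA was measured by bulk sequencing of whole tissue (27 libraries), epithelial cells (16) and sorted γδ IELs (22); the 6 single-cell samples were not used here. The authors mapped reads with ArrayStudio to mouse genome build GRCm38 and deposited expected counts per gene, estimated by RSEM from sense-strand exon reads, neither normalized nor rounded. A gene symbol was matched to 24375 of the 24475 gene identifiers, and 1 IEL column that matched no sample was left out.

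Expected counts were rounded, and a gene was tested where the number of libraries with 10 or more counts reached the size of the smaller group, with the quasi-likelihood test of edgeR 4.0.16 (R 4.3.3) after TMM normalization, over all genes of a comparison (Benjamini-Hochberg FDR below 0.05 and fold change above 1.5). Levels are CPM, with a pseudocount of 1 on the log2 scale. Total counts were 13619309 to 21708721 (tissue), 15397757 to 38258472 (epithelium) and 13444958 to 30029485 (IELs). No pair of tissue libraries of a group agreed within sampling noise (lowest chi-square per degree of freedom 5.08). The labels name separate libraries but no mice, so p-values measure the spread between libraries, which may be partly technical. The fit was tested on simulated counts. Alternatives used DESeq2 1.42.0, limma 3.58.1 (voom with quality weights), other scalings and filters, 1 fit of all 27 libraries and the omission of single libraries; the omission of marker-bearing libraries was added after seeing the data. Exact permutation tests and descriptions used Python 3.11.15 with scipy 1.17.1, numpy 2.4.6 and pandas 2.3.3. The muscle genes and all gene lists were chosen with earlier results of these data known. Named by rule are the 10 muscle genes, Btnl2, up to 3 genes per list and direction among those called in the WT tissue comparison, and the 10 genes most like the muscle genes. Chrm3, Etv1, the uncalled regulators and the genes that mark single libraries were named after their values were seen.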

Additional observations from a re-analysis of the deposited data

Results flagged for a closer look

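The highest or lowest library of a group was set against the others for 49 sets of values, 1 per muscle gene and group of 4 to 10 libraries with a mean of at least 1 CPM. Of these, 40 came from the tissue and 9 from the IEL groups. In the tissue 9 sets and in the IELs 0 stood apart by Dixon's test at the 95% level, a test that flags about 1 in 20 sets by chance. All 9 were high values, and all came from 2 libraries. Btnl2-KO small intestine library 964945 stood apart for 6 genes: Des (1470 CPM, next highest 789.5 CPM), Tagln (861.6 CPM), Cnn1 (471.7 CPM), Mylk (1706 CPM), Smtn (175.5 CPM) and Synpo2 (344.9 CPM). WT small intestine library 964946 stood apart for 3 genes: Actg2 (1855 CPM, next highest 878.5 CPM), Tagln (1258 CPM) and Cnn1 (611.8 CPM). Genes that vary together across libraries, as these do, are not separate flags of separate events.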

How the results depend on the processing

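Mylk was called lower in the colon under all alternatives in both genotypes, and no muscle gene was called between genotypes or for the interaction under any. In WT mice 0 muscle genes were called higher in the colon, but 2 (Tagln and Cnn1) by limma-voom with quality weights, and 0 to 2 when libraries were left out singly. In Btnl2-KO mice the count called higher was 1 (Tagln) with library totals alone, 2 (Tagln and Cnn1) by limma-voom and 0 to 2 without single libraries; the count called lower was 1 with library totals alone, 1 without a filter on low counts (Synpo2 lost at an edgeR FDR of 0.103 and 0.0516) and 1 to 2 without single libraries. Uncalled log2 fold changes that changed sign between colon and small intestine were, with library totals alone, Smtn at 0.048 in WT and Acta2 at 0.066 and Des at 0.049 in Btnl2-KO mice, and, by limma-voom, Actg2 at 0.11, Des at 0.29 and Smtn at 0.094 in WT and Actg2 at 0.027 and Des at 0.051 in Btnl2-KO mice. Without single libraries the ranges that crossed zero were, in WT tissue, -0.45 to 0.14 for Actg2, -0.27 to 0.20 for Des and -0.096 to 0.032 for Smtn; in Btnl2-KO tissue, -0.17 to 0.057 for Acta2, -0.36 to 0.16 for Actg2 and -0.21 to 0.24 for Des; between genotypes in small intestine, -0.53 to 0.25 for Actg2, -0.61 to 0.057 for Des and -0.57 to 0.027 for Cnn1; and in colon, -0.28 to 0.069 for Actg2 and -0.11 to 0.037 for Lmod1. The cause was not tested. Library totals alone moved the median log2 fold change of all genes from 0.02 to 0.12 for Btnl2-KO colon against small intestine and from -0.03 to -0.17 for genotype in small intestine. Of the other single-gene values, 1254 kept direction and side of the threshold, 45 lost and 12 gained a call. Over all genes, the genotype counts in small intestine (2 higher, 1 lower in edgeR) were 163 and 14 in DESeq2, 177 and 38 with all 27 libraries in one fit, 38 and 13 by limma-voom and 2 and 4 with library totals alone; DESeq2 gave 4 and 6 in colon and 8 and 9 for the interaction. The lowest FDR of a muscle gene in small intestine across these was 0.0705, with library totals alone. No paired analysis was possible because library numbers are unique and no label ties libraries of different groups to 1 mouse.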

Other observations

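Outside the muscle wall, 3 of 4 B cell genes were called higher in Btnl2-KO colon than in Btnl2-KO small intestine and 0 of 4 in WT mice; in the interaction fit, which tests that difference, 0 of 4 were called. All 4 striated muscle genes that passed the filter on low counts, of a list of 8, were called lower in the colon in both genotypes. Their summed level was 21.0 to 85.8 CPM in WT small intestine and 10.3 to 15.7 CPM in WT colon.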
